A study of Mus musculus with 8 samples.

Results

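The genes described are the 10 mouse genes of MHC class II antigen presentation that were listed by name: H2-Aa, H2-Ab1, H2-Eb1, H2-DMa, H2-DMb1, H2-DMb2, H2-Oa, H2-Ob, Cd74 and Ciita. They are 10 of the 37008 genes that the probes of the array name, and 19 of its 56605 probes measure them. Gene expression was measured with one-colour Agilent arrays in peritoneal macrophages of 4 Card9-/- and 4 wild-type (wt) samples. Card9 is the adaptor that carries signals from C-type lectin receptors for fungal cell walls to NF-kB. Mice of both genotypes were injected with 1 ml of 3% thioglycolate, which draws cells into the peritoneum, and peritoneal cells were collected 4 days afterwards. After lysis of red cells and seeding, the cells that adhered within 3 h were kept. Both genotypes also received zymosan, a yeast cell wall preparation, at 500 mg/kg for 4 h, so no untreated state is compared here. The labels give no strain, age or sex, nor the extent of the Card9 deletion. Cells of 4 or 5 mice per group were collected, and the labels do not say which mice each array holds, so p-values measure only the spread between these samples.

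MHC class II molecules are heterodimers that display peptides from engulfed material to CD4 T cells. Their chains assemble with the invariant chain Cd74, whose remnant peptide is exchanged for antigen by H2-DM in late endosomes, while H2-O holds H2-DM back. Ciita is the coactivator on which transcription of these genes depends, and dendritic cells, B cells and, after interferon gamma, macrophages are the cells known for high class II expression.

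A level below is the log2 processed signal of a probe minus the 75th percentile of the non-control spots of its array, so that 0 is that percentile, and a difference is Card9-/- minus wt on this log2 scale. Levels of different probes were not set against each other, except in choosing a gene's brightest probe, in comparing 5' with 3' probes and where probes were combined. The marker sums and the mean of the 3 classical chain genes combine probes, and in a sum the brightest probes weigh most. Of an array's 59305 non-control spots, 47.8% to 56.5% were well above background and 0 were saturated. The number of arrays limits the precision. Slide 1 carried Card9-/- replicate 4 beside the 4 wt arrays, slide 2 carried Card9-/- replicates 1 and 3, and slide 3 carried Card9-/- replicate 2. Signal of the brighter Card9 probe stood well above background on 0 of the 4 Card9-/- and 3 of the 4 wt arrays, and the library labelled wt replicate 1 was the exception, with a processed signal of 4.75, against 38.2 to 1058 in the other wt libraries. The libraries labelled wt replicates 1 and 2 correlated with each other at 0.985 and with wt replicates 3 and 4 at 0.822 to 0.895. The same 2 libraries correlated at 0.949 and 0.963 with the array of Card9-/- replicate 2 and at 0.920 and 0.930 with that of Card9-/- replicate 3, above their values with the other wt arrays. The summed linear level of 7 macrophage markers was 71.1 to 219 in the Card9-/- libraries, against 48.3 and 43.1 in the libraries labelled wt replicates 1 and 2 and 1368 and 520.0 in wt replicates 3 and 4. Of these 7, Mertk was detected well above background on 0 Card9-/- and 2 wt arrays, Fcgr1 on 4 Card9-/- and 2 wt arrays, and the other 5 on every array. Of the 6 tested, all but Mertk, 5 had a lower mean in Card9-/-, all but Lyz2 (0.019). Their median difference was -1.27, and the smallest limma adjusted p was 0.738. Without wt replicates 3 and 4, 5 of the 6 were higher in Card9-/-, with a median of 1.59. The Y-linked Eif2s3y was well above background on 4 Card9-/- and 0 wt arrays and the X-inactivation transcript Xist on 0 and 4, so sex and genotype cannot be told apart here.

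All 10 genes were measured above background on all 8 arrays by at least 1 probe, and 16 of their 19 probes passed the filter on dim probes. For none of the 10 did the difference between the genotypes pass the test against the spread between arrays: 0 of 10 passed an adjusted p of 0.05 in limma, where 5 of all 18603 genes tested did (0.0269%; 0.0215% higher and 0.00538% lower in Card9-/-), and 0 of 10 had an unadjusted p under 0.05, where 7.22% of all genes did. That second count was 2 with normexp background correction (H2-Ab1 and H2-Eb1), where 1718 of the 18603 genes had such a p. It was 2 without Card9-/- replicate 4 (H2-DMb2 and H2-Ob), where 1915 genes did, and 1 with quantile normalization (H2-Ob), where 1319 genes did. Each of these counted values had a limma adjusted p of 0.254 or more. These counts leave out slide 1 alone and slide as a block, where 1 Card9-/- array is set against wt. The Cd74 difference was -1.34 under both. The groups overlapped for every one of the 10, and 5.21% of all genes tested had groups that did not overlap. Adjusted p-values of the 10 genes ran between 0.746 and 0.991. Their mean was higher in Card9-/- for 4 (H2-DMa, H2-DMb2, H2-Oa and H2-Ob) and lower for 6, a split that is 3 and 7 with median scaling, where H2-DMa turned, and 6 and 4 with quantile normalization, where H2-Aa and H2-DMb1 turned. The median difference of the 10 was -0.20, against -0.088 over all genes tested. In these bulk samples, fewer cells of a type and less RNA per cell cannot be told apart.

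**Figure D1:**
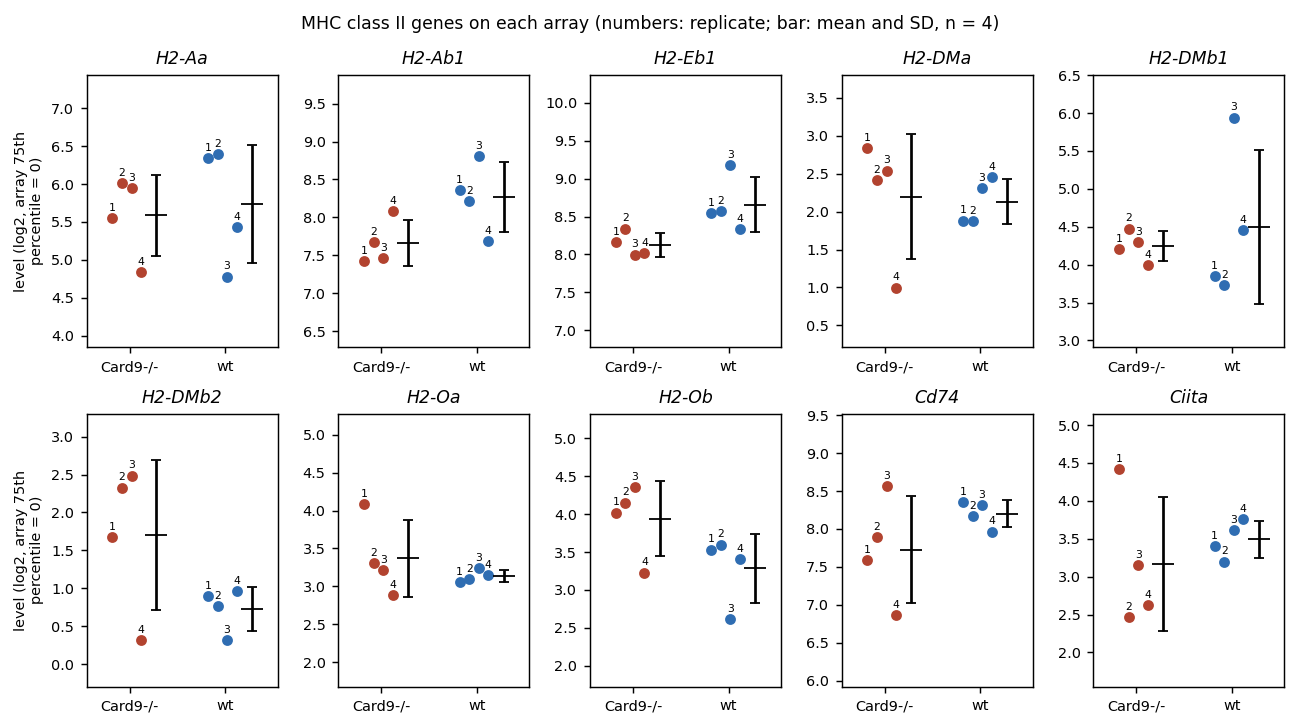
Level of each of the 10 genes on each array (log2, the array's 75th percentile is 0), with Card9-/- in red on the left and wt in blue on the right, points numbered by replicate and bars for the mean and SD of 4 arrays. The groups overlap in every panel, Card9-/- replicate 4 is the lowest Card9-/- array for 7 of the 10 genes, and every axis spans the same number of log2 units.

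H2-Ab1 and H2-Eb1, which encode the beta chains of the classical I-A and I-E molecules, had the lowest differences of the 10. H2-Eb1 had levels of 8.16, 8.34, 7.998 and 8.01 on Card9-/- arrays 1 to 4, against 8.54, 8.57, 9.18 and 8.34 on arrays labelled wt 1 to 4 (chr17:34453075-34453134, mm9). The wt arrays were the higher ones, apart from a single overlap in which Card9-/- replicate 2 lay marginally above wt replicate 4. Its mean was 8.13 ± 0.16 in Card9-/- and 8.66 ± 0.36 in wt (SD, n = 4 each), a difference of -0.53 (SE 0.33, 95% interval -1.27 to 0.22). The exact two-sided permutation test over 70 assignments gave p = 0.0571, the limma adjusted p was 0.798, and the smallest p these permutations can give is 0.0286. Within slide 1, where 1 Card9-/- array faced the 4 wt arrays, the difference was -0.64.

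The I-A beta chain gene H2-Ab1 was read by 4 probes, whose places along the transcript are those of the array's annotation. Sequence is shown for all but the probe at base 888. The first lies at bases 528 on of the transcript, at chr17:34404357-34404416 on the plus strand of mm9, in lower case throughout, and the other 2 lines are the same 29-base stretch of the probes at transcript bases 1125 and 1134 (chr17:34406296-34406355 and chr17:34406305-34406363), which overlap by 51 bases and differ at 1, the base in capitals.
H2-Ab1 probe at base 528: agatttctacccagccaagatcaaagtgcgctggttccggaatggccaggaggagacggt
H2-Ab1 probe at base 1125: gattacaaataaacgagacTcagactctg
H2-Ab1 probe at base 1134: gattacaaataaacgagacCcagactctg
The difference is T51C, counted from base 1 of the probe at base 1125, with the base of that probe first.

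At the probe at base 1125, the brightest and the one used for the gene, H2-Ab1 had levels of 7.43, 7.67, 7.47 and 8.09 on Card9-/- arrays 1 to 4, against 8.36, 8.22, 8.81 and 7.69 on arrays labelled wt 1 to 4. Card9-/- replicates 1, 2 and 3 lay below every wt array, and Card9-/- replicate 4 lay above wt replicate 4. The difference was -0.60 (SE 0.36, limma adjusted p = 0.787, exact permutation p = 0.0571), and -0.18 within slide 1. The 4 probes did not give the same difference: it was 0.081 at base 528, -0.22 at base 888, -0.60 at base 1125 and -0.88 at base 1134, with exact permutation p-values of 0.943, 0.486, 0.0571 and 0.0857. The near-identical pair at bases 1125 and 1134 ordered the arrays in much the same way, with Card9-/- replicates 1 and 3 lowest at both (6.89 and 6.96 at base 1134) and wt replicate 3 highest at both (9.01 at base 1134). At base 528 Card9-/- replicate 4 was the lowest array at 4.74 and the other Card9-/- arrays were the highest, at 6.05 to 6.34, against 5.65 to 5.85 on the wt arrays.

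Over 3332 transcripts with probes at least 300 bases apart, the level of the 5' probe relative to the 3' probe also differed by array, at -0.21, -0.012, 0.070 and 0.28 on Card9-/- arrays 1 to 4 and 0.31, 0.13, -0.37 and -0.23 on arrays labelled wt 1 to 4. For H2-Ab1, Card9-/- replicate 4 read low at its 5' probe where this offset was positive, and wt replicate 3 read low at its 5' probe and high at its 3' probes where the offset was negative. Its part in the probe pattern was not tested.

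**Figure D2:**
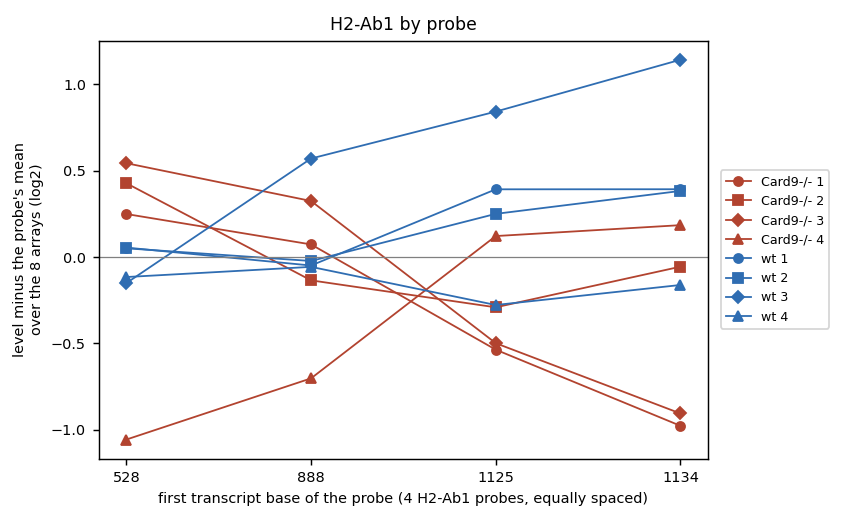
H2-Ab1 at its 4 probes, ordered by first transcript base (equally spaced on the x axis), as each array's level minus the probe's mean over the 8 arrays (log2, y axis), with Card9-/- arrays in red and wt arrays in blue. Card9-/- replicates 1, 2 and 3 lie above 0 at base 528 and below 0 at bases 1125 and 1134, and Card9-/- replicate 4 runs the other way.

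H2-Aa, the alpha chain partner of H2-Ab1, was read by 1 probe in the 5' part of the transcript, at chr17:34421285-34421344 on the minus strand of mm9.
H2-Aa probe: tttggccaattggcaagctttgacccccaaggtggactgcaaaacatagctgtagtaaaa
Its levels were 5.56, 6.01, 5.94 and 4.84 on Card9-/- arrays 1 to 4, against 6.34, 6.39, 4.78 and 5.43 on arrays labelled wt 1 to 4. The libraries labelled wt replicates 1 and 2 were the highest of all 8, and wt replicate 3 and Card9-/- replicate 4 the lowest. The difference was -0.15 (SE 0.48, limma adjusted p = 0.974), and -0.90 within slide 1. It was 0.053 without the library labelled wt replicate 1, 0.10 without Card9-/- replicate 4 and -0.47 without wt replicate 3, so the sign rests on single libraries. On wt replicate 3, where H2-Aa was lowest, H2-Ab1 and H2-Eb1 were at their highest. The probes differ in place, with H2-Aa read from base 227, H2-Ab1 from base 1125 and H2-Eb1 from base 1124. At the H2-Ab1 probe at base 528, wt replicate 3 was the lowest wt array, at 5.65. The part of probe position in this contrast was not tested.

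The mean of the 3 classical chain genes was 7.05, 7.34, 7.14 and 6.98 on Card9-/- arrays 1 to 4, against 7.75, 7.72, 7.59 and 7.15 on arrays labelled wt 1 to 4. Over the 8 arrays the genes most like this mean, among 12687 candidates, were Tor1b (Pearson r = 0.986), Ap4m1 (0.975), Myg1 (0.972), G3bp1 (0.968), Gps1 (0.968) and Bicd2 (0.967). These correlations, the highest of 12687, describe 8 arrays that share slides and scaling, and shared regulation was not tested. The 3 genes that make up this mean correlated less with it, at r = 0.49 for H2-Aa, 0.70 for H2-Ab1 and 0.75 for H2-Eb1. Among the other members, Cd74 had r = 0.61 with this mean, and H2-Ob had r = -0.31.

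Of the other class II genes of the region, the files measured H2-Ea, which they name H2-Ea-ps, and H2-Eb2. H2-Ea, the alpha chain gene of the I-E molecule, was not well above background on any of the 8 arrays. H2-Eb2, a further beta chain gene, had 2 probes that gave 0.34 (exact permutation p = 0.400, starting at base 1958) and 1.05 (exact permutation p = 0.0286, starting at base 320). At the second of these, the levels of -1.50, -2.91, -2.42 and -2.81 on Card9-/- arrays 1 to 4 all lay above the -3.74, -3.29, -3.14 and -3.69 on arrays labelled wt 1 to 4. The limma p of that probe adjusted over all probes was 0.659. Its processed signals were 27.7 to 77.6 on Card9-/- arrays and 26.5 to 69.0 on wt arrays. The H2-Ea probe, undetected on every array, gave 0.74, also without overlap (exact permutation p = 0.0286). Groups did not overlap for 5.21% of all genes tested. Detected spots reached down to between -4.17 and -3.47 on Card9-/- arrays, and further, to between -4.84 and -4.31, on wt arrays. The part of background signal in the H2-Eb2 separation was not tested.

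Cd74 encodes the invariant chain, the chaperone that occupies the class II groove until antigen is loaded (chromosome 18, 60972075 to 60972132, mm9). Its levels were 7.59, 7.89, 8.57 and 6.87 on Card9-/- arrays 1 to 4, against 8.36, 8.17, 8.32 and 7.96 on arrays labelled wt 1 to 4. The Card9-/- arrays held both the highest value, on replicate 3, and the lowest, on replicate 4, and the wt arrays lay within 0.39 of each other. The difference was -0.47 (SE 0.41, 95% interval -1.40 to 0.45, limma adjusted p = 0.862), and it was -1.34 within slide 1 and -0.19 without Card9-/- replicate 4.

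H2-DM is the heterodimer that removes the invariant chain peptide and edits the peptides that class II keeps. H2-DMa, its alpha chain, had levels of 2.84, 2.42, 2.54 and 1.00 on Card9-/- arrays 1 to 4, against 1.88, 1.88, 2.31 and 2.45 on arrays labelled wt 1 to 4. Card9-/- replicate 4 was the lowest of all arrays by far and Card9-/- replicate 1 the highest, so the difference was 0.069 over all arrays (SE 0.45, limma adjusted p = 0.991), 0.47 without Card9-/- replicate 4, -0.14 without Card9-/- replicate 1 and -1.13 within slide 1. H2-DMb1, a beta chain of H2-DM, had levels of 4.20, 4.48, 4.29 and 4.00 on Card9-/- arrays 1 to 4, against 3.84, 3.73, 5.94 and 4.45 on arrays labelled wt 1 to 4. Here wt replicate 3 stood above the other 7 arrays, and the difference of -0.25 (SE 0.51, limma adjusted p = 0.952) was 0.23 without it. A second H2-DMb1 probe was well above background on wt replicate 3 and on no other array.

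H2-DMb2, the second beta chain gene of H2-DM, had the highest difference of the 10, and the probe that read it was at chr17:34284764-34284823 on the plus strand of mm9.
H2-DMb2 probe: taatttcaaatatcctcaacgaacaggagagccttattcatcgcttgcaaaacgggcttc
H2-DMb2 and H2-DMb1 are near copies, and how far each probe reads the other gene was not tested. H2-DMb2 had levels of 1.68, 2.33, 2.49 and 0.32 on Card9-/- arrays 1 to 4, against 0.89, 0.76, 0.31 and 0.96 on arrays labelled wt 1 to 4. Card9-/- replicates 1, 2 and 3 lay above every wt array, and Card9-/- replicate 4 lay with the lowest of them. Its mean was 1.70 ± 0.99 in Card9-/- and 0.73 ± 0.29 in wt (SD, n = 4 each), a difference of 0.97 or 1.96-fold (SE 0.50, 95% interval -0.16 to 2.10), with an limma adjusted p of 0.746 and an exact permutation p of 0.114. The difference was 1.43 (limma adjusted p = 0.254) without Card9-/- replicate 4 and -0.42 within slide 1, where that array stands alone for Card9-/-.

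H2-O is the heterodimer that binds H2-DM and holds back peptide exchange, and in mice it is known from B cells, thymus and dendritic cells. H2-Ob, its beta chain, was read at chr17:34380481-34380849 on the plus strand of mm9, a span of 369 bases in the genome for a probe of 60 bases.
H2-Ob probe: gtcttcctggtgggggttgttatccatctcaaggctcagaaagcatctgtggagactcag
Its levels were 4.02, 4.15, 4.36 and 3.23 on Card9-/- arrays 1 to 4, against 3.53, 3.60, 2.61 and 3.40 on arrays labelled wt 1 to 4. As for H2-DMb2, Card9-/- replicates 1, 2 and 3 lay above every wt array and Card9-/- replicate 4 did not, and wt replicate 3 was the lowest. The difference was 0.65 (SE 0.40, 95% interval -0.24 to 1.54), with an limma adjusted p of 0.787 and an exact permutation p of 0.114. It was 0.89 without Card9-/- replicate 4, 0.43 without wt replicate 3 and -0.057 within slide 1. A second probe of H2-Ob, starting at base 336 of the transcript, gave 0.70 (exact permutation p = 0.114), and another was well above background on wt replicate 4 and on no other array.

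H2-Oa, the alpha chain of H2-O, had levels of 4.09, 3.30, 3.22 and 2.89 on Card9-/- arrays 1 to 4, against 3.05, 3.10, 3.24 and 3.15 on arrays labelled wt 1 to 4. Card9-/- replicate 1 stood above the rest, and the wt arrays lay within 0.19 of each other, with an SD of 0.082 that was the smallest of any group of the 10 genes. The difference was 0.24 (SE 0.36, limma adjusted p = 0.925), and -0.25 within slide 1. H2-Ob and H2-Oa correlated at r = 0.38 over the 8 arrays and H2-Ob and H2-DMb2 at r = 0.92, as a description of 8 arrays on shared slides. The genes most like H2-Ob, as the highest of the same 12687 candidates, were Mbnl3 (r = 0.972), Zhx1 (0.971) and Capn7 (0.969).

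**Figure D3:**
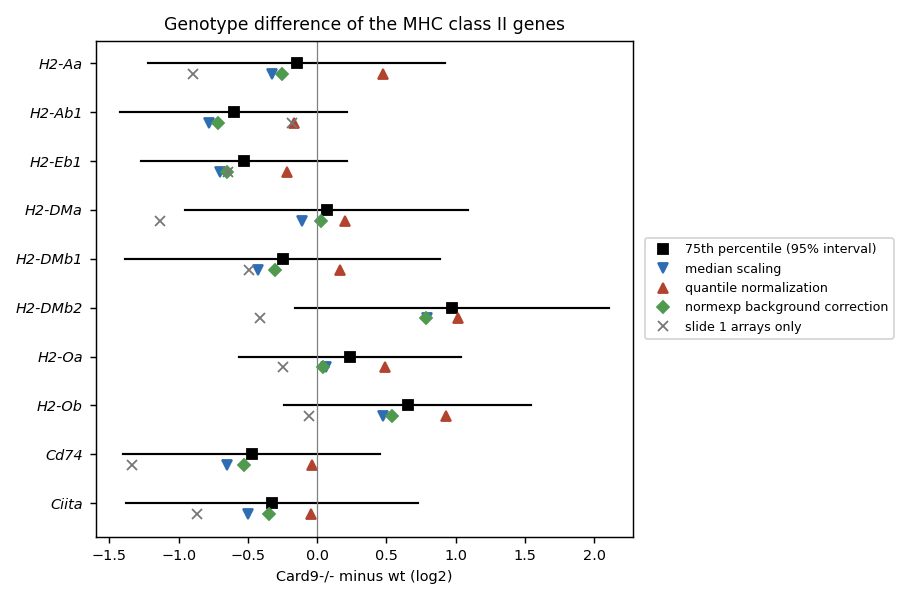
Difference of each gene (Card9-/- minus wt, log2, x axis) as a black square with its 95% interval, and below it the value with median scaling, quantile normalization, normexp background correction and the arrays of slide 1. Every interval crosses 0, and within slide 1, which holds 1 Card9-/- array, all 10 values lie below 0.

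The promoters of class II genes are known to share an X box, bound by the RFX complex and CREB, and a Y box, bound by NF-Y, on which Ciita assembles. Promoter sequences of 7 of the 10 genes, 250 bases before to 50 after the start, came from RefSeq (GRCm38.p6), and the H2-DMa entry has 2 starts. The motifs below were chosen after these sequences had been seen. On either strand, the Y box letters TGATTGG stood in 7.82% of all 32851 promoters of this length and in those of 6 of the 7 genes, all but H2-DMa. The X box letters CNNATGATG, with N for any base, stood in 2.75% of all promoters and in those of H2-DMb1, H2-DMb2, H2-Ob and H2-Eb1. Other spellings of the X box were not searched, so a promoter without this match, such as that of H2-Aa, can still hold an X box. Both motifs together stood in 57 promoters (0.174%), and 4 of those belong to these genes, where the motifs share no base. The stretches of 62 bases are shown 5' to 3' along the gene because they hold the letters of these known elements, with the motifs in capitals where they match.
H2-Eb1 (chr17:34305756-34305817, plus strand): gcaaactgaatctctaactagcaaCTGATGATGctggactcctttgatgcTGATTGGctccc
H2-DMb1 (chr17:34153078-34153139, plus strand): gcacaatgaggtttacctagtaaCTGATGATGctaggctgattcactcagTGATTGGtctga
H2-DMb2 (chr17:34145107-34145168, plus strand): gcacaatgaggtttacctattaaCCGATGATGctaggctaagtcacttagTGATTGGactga
H2-Ob (chr17:34238796-34238857, plus strand): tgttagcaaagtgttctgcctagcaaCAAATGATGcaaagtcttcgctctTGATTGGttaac
H2-Oa (chr17:34092284-34092345, plus strand): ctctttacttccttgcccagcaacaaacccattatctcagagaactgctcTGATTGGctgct
H2-Aa (chr17:34287862-34287923, minus strand): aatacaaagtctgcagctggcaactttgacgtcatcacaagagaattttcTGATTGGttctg

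In the 4 promoters with both motifs, 15 to 18 bases separated the X box letters from the Y box letters, and the Y box letters began 59 to 92 bases before the start. A match is a description of letters and not of binding. The 4 genes with both motifs had differences of both signs, -0.53 for H2-Eb1, -0.25 for H2-DMb1, 0.97 for H2-DMb2 and 0.65 for H2-Ob.

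Ciita, the coactivator itself, had levels of 4.42, 2.46, 3.15 and 2.62 on Card9-/- arrays 1 to 4, against 3.40, 3.20, 3.61 and 3.76 on arrays labelled wt 1 to 4 (chr16:10526458-10526517, mm9, starting at base 4390 of the transcript). Card9-/- replicate 1 was the highest of all arrays and the other Card9-/- arrays lay below every wt array. The difference was -0.33 (SE 0.47, 95% interval -1.38 to 0.73, limma adjusted p = 0.923), and it was -0.74 without Card9-/- replicate 1 and -0.87 within slide 1. Its other probes gave 0.26 (starting at base 3836) and -0.27 (starting at base 1565), with Card9-/- replicate 1 the highest array at each, and the remaining probe was not well above background on any array. Over the 8 arrays, Ciita had r = -0.10 with H2-Aa, -0.10 with H2-Ab1 and 0.19 with H2-Eb1. Its r was 0.69 with H2-Oa and 0.58 with H2-DMa. These values describe 8 arrays with 1 probe for each gene, and differences between them were not tested. The genes most like Ciita, as the highest of the same 12687 candidates, were Il4i1 (r = 0.977), Rpp38 (0.972) and Zbtb3 (0.970).

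Of the DNA-binding factors of class II promoters, 7 of 7 were tested and 0 passed an adjusted p of 0.05 in either direction. Their median difference was -0.17. The 2 with the smallest p, neither past the threshold, were Rfxank, an RFX subunit, with 0.75 (limma adjusted p = 0.845), and Creb1, with -0.54 (limma adjusted p = 0.858). Of the interferon gamma route to Ciita, 0 of 7 passed in either direction, with a median of 0.31. The transcription factor Irf8 gave 0.76 and the receptor chain Ifngr1 0.83, with limma adjusted p-values of 0.753 and 0.787. Levels of Irf8 were 5.66, 4.27, 4.62 and 4.31 on Card9-/- arrays 1 to 4, against 4.07, 3.70, 3.71 and 4.32 on arrays labelled wt 1 to 4, with Card9-/- replicate 1 the highest of all, as it was for Ciita. Both repressors of Ciita that were tested had negative differences, -0.79 for Prdm1 and -0.59 for Bcl6 (limma adjusted p = 0.837 and 0.851).

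Genes that process the invariant chain and antigen were lower in mean in Card9-/- for 6 of 7, all but Ifi30 (0.29), with all 3 other scalings or background corrections as well, and 0 of 7 passed an adjusted p of 0.05. Their median was -0.87. Lgmn, an asparagine endopeptidase of lysosomes, had levels of 5.54, 5.30, 5.35 and 4.91 on Card9-/- arrays 1 to 4, against 5.58, 5.48, 7.36 and 6.16 on arrays labelled wt 1 to 4, a difference of -0.87 (limma adjusted p = 0.753). Sppl2a, the membrane protease that clears the last Cd74 fragment, gave -0.75 (limma adjusted p = 0.776), and Ctss, the cathepsin that cleaves the invariant chain, gave -0.74 (0.787). For Lgmn and Ctss the high arrays were wt replicates 3 and 4, in which the macrophage markers were also high: without these 2 libraries the list's median was 0.28, with 3 of 7 lower. The part of cell composition in this was not tested. Of the regulators of surface class II, 0 of 3 tested passed. Cd83, which protects class II from ubiquitination, gave -0.53 (limma adjusted p = 0.827), and the ubiquitin ligase Marchf8 gave 0.90 (limma adjusted p = 0.921).

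Markers of other class II-bearing cells were well above background on these arrays. The summed linear level of 9 B cell markers was 253 to 367 in Card9-/- libraries, against 172 to 425 in wt libraries, and all 8 arrays read each marker of the 9 well above background. The mean was higher in Card9-/- for 8 of the 9 markers, all but Cd79b (9 with quantile normalization), 0 of 9 passed an adjusted p of 0.05, and their median difference was 0.50. Without wt replicate 3, in which H2-Ob, H2-DMb2 and H2-Aa were also lowest, 7 of 9 were higher with a median of 0.32. Within slide 1 the B cell median was -0.0034 and 4 of 9 were higher. The 8 conventional dendritic cell markers summed to 132 to 243 in Card9-/- libraries, against 144 to 242 in wt libraries, but most of each sum was Ccr7, whose difference was -0.14. Of the 7 dendritic cell markers tested, 5 had a higher mean in Card9-/- and 0 passed an adjusted p of 0.05, with a median difference of 0.42, and of 1.18 without wt replicate 3. Xcr1, the marker not tested, was detected on 0 Card9-/- and 2 wt arrays. Of the 3 plasmacytoid dendritic cell markers, 2 had a higher mean in Card9-/- and 0 passed an adjusted p of 0.05, with a median difference of 0.044. The count of higher markers was 0 with median scaling and 1 with quantile normalization or normexp. Siglech, the marker with the lower mean, had a difference of -1.49 (limma adjusted p = 0.763). The 6 T cell markers summed to 64.8 to 118 in Card9-/- libraries, against 44.8 to 111 in wt libraries, and 6 of 6 had a higher mean in Card9-/- (5 with median scaling or normexp), with a median of 1.48, 4 at an unadjusted p under 0.05 and 0 past an adjusted p of 0.05. The 4 natural killer cell markers summed to 5.42 to 24.4 in Card9-/- libraries, against 1.75 to 2.77 in wt libraries, with no overlap. Of the 3 tested, all but Ncr1, 3 had a higher mean in Card9-/-, with a median of 2.40. All 3 had an unadjusted p under 0.05, and 0 passed an adjusted p of 0.05 (smallest limma adjusted p = 0.301). Over all genes tested, 7.22% had an unadjusted p under 0.05 and 5.21% had groups that did not overlap. The part of B cell or dendritic cell RNA in the class II values was not tested, nor was any effect of the share of T cells or natural killer cells.

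**Figure D4:**
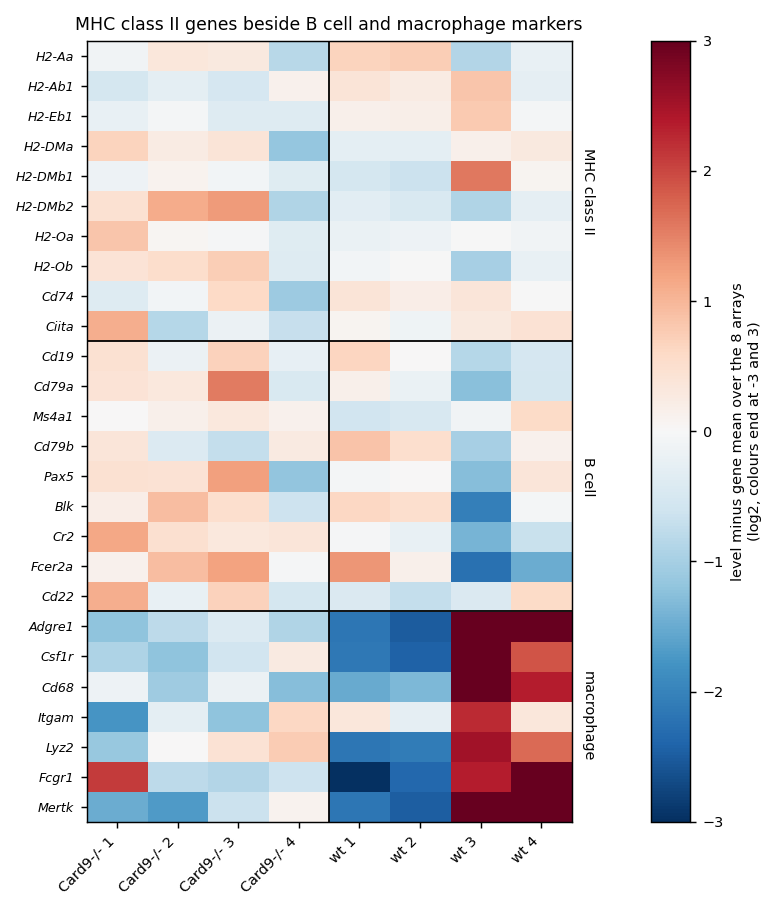
Level of each gene minus its mean over the 8 arrays (log2, colours ending at -3 and 3) for the 10 class II genes, 9 B cell markers and 7 macrophage markers, with Card9-/- arrays in the left columns and wt arrays in the right columns. Most macrophage markers are highest on wt replicates 3 and 4, wt replicate 3 is low for most B cell markers, and the class II genes do not follow one pattern.

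Single libraries moved many of the 10 genes at once. Card9-/- replicate 4, the one on the slide of the wt arrays, was the lowest Card9-/- array for 7 of the 10 genes. Within slide 1 all 10 differences were negative, with a median of -0.57, against -0.26 for all genes. Without Card9-/- replicate 4 the members split 5 higher and 5 lower, with a median of -0.023, and without the library labelled wt replicate 1 they split 4 and 6, with a median of -0.19. Neutrophil markers, summing to 799 on that Card9-/- array, against 91.6 to 313 on the other Card9-/- arrays and 141 to 523 on wt arrays, and red cell markers, at 3279 against 505 to 1106 and 155 to 1169, were also set apart there, and their part in its class II values was not tested. Among wt arrays, wt replicate 3 was the highest for 4 and the lowest for 3 of the 10 genes.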

How the data were processed

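The deposited scanner files hold, per the file headers, intensity values that Agilent Feature Extraction 10.7.1.1 background-subtracted and detrended, with no scaling between arrays. They also hold the software's deposited flags for spots well above background, outliers and saturation. The authors' deposited series matrix holds log2 values with a median of 4.48 in each column. After 49670 of its 56745 rows, 7075 carry the values of the next identifier, and its columns match the scanner files of their own replicate in 2 of 8, so it served only as an alternative, over the aligned rows. No source used here says how the authors made it. Coordinates of probes are those of the files (mm9).

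From the scanner files, log2 processed signals minus each array's 75th percentile were computed. Outlier spots (63 to 213 per array) were set missing, and repeated spots averaged. A probe was kept if 3 or more of the 4 arrays of a genotype had it well above background (28167 probes), and the brightest probe stood for each gene (18603 genes). Names came from accessions, symbols or synonyms in the RefSeq table where these matched (32994, 10224 and 520 probes), and otherwise from the files (12867).

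Genotypes were compared with limma 3.58.1 (R 4.3.3, with version 1.17.8 of data.table), two-sided, with Benjamini-Hochberg adjustment over all genes, beside exact permutation tests over all 70 assignments of arrays for single probes. The fit was tested on simulated data. Python 3.11.15 with numpy 2.4.6, pandas 2.3.3, scipy 1.17.1 and matplotlib 3.10.9 did the rest. A marker sum adds the linear levels (2 to the power of the level) of a list's genes. The members, gene lists and markers were chosen with earlier results of these data known. All members are named, and of each pathway list the genes that passed or, with none, the 2 of smallest p. Ctss, Ifi30, the levels of Irf8, the single marker genes named, the second H2-Eb2 probe and the H2-Ea difference were chosen after their values were seen. The samples were not treated as paired by replicate number, because the labels state no pairing. The alternatives were background correction, scaling, the filter, the probe rule, slide, replicate block, the averaging of wt replicates 1 and 2, the matrix, and each array left out.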

Additional observations from a re-analysis of the deposited data

How the results depend on the processing

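No class II gene passed an adjusted p of 0.05 in any of 208 alternative values of the 10 genes, whose limma adjusted p ranged between 0.250 and 1.00, and 28 of the 208 turned the direction. Within slide 1, and in the same way with slide as a block, where Card9-/- has 1 array to set against wt, the difference became -1.13 for H2-DMa, -0.42 for H2-DMb2, -0.25 for H2-Oa and -0.057 for H2-Ob, the median of the 10 was -0.57, and 0 genes of all tested passed the threshold (1637 within slide 1 and 1660 with the block at an unadjusted p under 0.05), against 5. Quantile normalization turned H2-Aa to 0.48 and H2-DMb1 to 0.16 and the median to 0.18. The authors' matrix, with 8 of the 10 genes, turned H2-Aa to 0.34, H2-DMb1 to 0.13 and Cd74 to 0.00174, with a median of 0.17. Median scaling turned H2-DMa to -0.11. It moved the median of all genes to -0.26 against -0.088, so that the 10 genes lay 0.11 below it under both, while normexp moved it to 0.031 and the 10 genes lay 0.31 below it. Averaging the libraries labelled wt replicates 1 and 2 turned H2-Aa to 0.062 and H2-DMa to -0.015. Leaving out each array in turn gave -0.47 to 0.10 for H2-Aa, -0.14 to 0.47 for H2-DMa and -0.50 to 0.23 for H2-DMb1. Alternatives added after seeing the data were the probe nearest the transcript's start, which turned H2-Ab1 to 0.081 and Ciita to 0.26, leaving out wt replicates 3 and 4, which turned H2-DMb1 to 0.45, and the 5' offset as a covariate, which turned none. The first 2 of these gave a median of 0.075 and 0.083. The cause of these turns was not tested. The replicate block gave 3 genes past the threshold and 0 of the 10. Same-numbered samples deviated together only for replicate 2 (correlations -0.13, 0.25, -0.12 and -0.28). The labels state no pairing, and these correlations, with 4 arrays a group, cannot settle whether the numbers pair samples. With 4 arrays a group, the 95% intervals of the class II differences all include 0.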
